A study of Mus musculus with 4 samples.

Results

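Transcripts of 8 genes of ester and aldehyde metabolism and of the secretory pathway were followed across mouse testis sections of H3t knockout and wild-type mice. They are the carboxylesterases Ces1d, Ces1e and Ces1f, the aldehyde oxidases Aox1 and Aox3, the secreted kinase Pkdcc, the glutaminyl cyclase Qpct and the glycosyltransferase B3gnt3. Ces1d, Aox1, Pkdcc, Qpct and B3gnt3 were chosen by measured values, because their counts were higher after irradiation aimed at Leydig cells than after irradiation of the entire section in wild-type testis, and the other 3 as close relatives of the esterase and the oxidase. Of the 8 genes, 7 were among the 28595 genes of the count table, 6 passed the filter on low counts, Ces1f did not, and Ces1e is not analysed here.

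Carboxylesterases split ester bonds in lipids, drugs and other small molecules inside the endoplasmic reticulum, and mouse Ces1d is also known as a triacylglycerol hydrolase of liver and fat. Aldehyde oxidases are molybdenum enzymes that oxidize aldehydes, among them retinal, and many nitrogen-containing ring compounds. Leydig cells, which lie between the seminiferous tubules, make testosterone from cholesterol, and part of that cholesterol comes from esters held in lipid droplets. Pkdcc, Qpct and B3gnt3 act on proteins that pass through the secretory pathway: Pkdcc phosphorylates them on tyrosine, Qpct closes an N-terminal glutamine into pyroglutamate, and B3gnt3 extends O-linked sugar chains.

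Photo-isolation chemistry was used on 10 µm sections: complementary DNA carries a caged group that ultraviolet light removes, so that only irradiated areas give a library. The 4 groups were H3t KO testis irradiated only at Leydig cells, wild-type testis irradiated only at Leydig cells, H3t KO testis irradiated over the entire section, and wild-type testis irradiated over the entire section, with 3 libraries each. H3t is a histone H3 variant of the testis, deleted in the knockout mice, whose testes have disrupted spermatogenesis per the series' design text. Wild-type samples are titled young, and no age is stated for the knockout mice. Whether 3 libraries of a group stand for 3 animals is not stated either. The p-values thus reflect the spread among libraries, which may be technical, and each group is 1 deposited sample, so that an effect of the sample and of the group cannot be told apart.

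Leydig-targeted libraries held 15208 to 53003 counts in KO and 5947 to 54882 in wild type, and entire sections 321771 to 475764 counts in KO and 247539 to 566527 in wild type. Wild-type Leydig-targeted replicate 3, with 5947 counts, stood apart, and 3 counts there are 504 CPM (counts divided by the library total, on the usual scale of counts per 1e6). The targeted gene, named H3f4 in the table, had 0 counts in all 6 KO libraries and 1 count over the 6 wild-type libraries, which is too few to check a label. The summed counts of 10 Leydig markers took 3.36 to 4.09% of each KO and 0.841 to 1.47% of each wild-type Leydig-targeted library, and 1.62 to 2.16% of each KO and 0.200 to 0.421% of each wild-type section. Spermatid markers took at most 0.0094% of KO and 1.53 to 2.76% of wild-type Leydig-targeted libraries, and 0.0054 to 0.0799% of KO and 2.76 to 5.29% of wild-type sections.

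The esterases and oxidases lie in tandem families, so reads of one relative could be counted for another. In GRCm38 with GENCODE M21 annotation, Aox1 (ENSMUSG00000063558) is a protein-coding gene on chromosome 1 from 58029931 to 58106413, plus strand, and Aox3 (ENSMUSG00000064294) follows it from 58113130 to 58200698 on the same strand. Ces1d (ENSMUSG00000056973) is on chromosome 8 from 93166068 to 93197838, minus strand, with Ces1e from 93201218 to 93229619 and Ces1f (ENSMUSG00000031725) from 93256236 to 93279747, also on the minus strand. The coding sequences of Aox1 and Aox3 were 65.4% identical over 4015 aligned positions, and no stretch of 50 bases was shared between their transcripts. Ces1d was 79.6% identical to Ces1e in coding sequence and 77.1% identical to Ces1f. Ces1d shared 0 of 2024 stretches of 50 bases with Ces1e and 4 of 1877 with Ces1f. The last 60 coding bases before the stop codon are shown because they are where the 3 esterases can be told apart close to the transcript end. Capitals mark bases that differ from Ces1d at the same position, 31 of 60 in each relative.
Ces1d: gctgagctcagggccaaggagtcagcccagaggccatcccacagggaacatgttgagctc
Ces1e: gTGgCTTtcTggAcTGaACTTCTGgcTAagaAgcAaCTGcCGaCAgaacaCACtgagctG
Ces1f: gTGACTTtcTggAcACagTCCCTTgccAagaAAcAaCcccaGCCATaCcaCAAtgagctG

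Pkdcc (ENSMUSG00000024247) is on chromosome 17 from 83215292 to 83225070 and Qpct (ENSMUSG00000024084) on the same chromosome from 79051906 to 79090378, both on the plus strand. B3gnt3 (ENSMUSG00000031803) is on chromosome 8 from 71690756 to 71701789, minus strand, and overlaps an antisense gene, Gm45756, that had 2 counts over all 12 libraries. No strand setting is stated, so reads of the pair cannot be told apart. RefSeq promoter windows on GRCm38.p6, from 250 bases before to 50 after the gene start, were found for 5 of the 8 genes. The windows of the 2 neighbouring oxidases are shown because the balance between these neighbours is compared among the libraries. Capitals mark GC boxes (GGGCGG, either strand).
Aox1, chr1:58029719-58030018, plus strand: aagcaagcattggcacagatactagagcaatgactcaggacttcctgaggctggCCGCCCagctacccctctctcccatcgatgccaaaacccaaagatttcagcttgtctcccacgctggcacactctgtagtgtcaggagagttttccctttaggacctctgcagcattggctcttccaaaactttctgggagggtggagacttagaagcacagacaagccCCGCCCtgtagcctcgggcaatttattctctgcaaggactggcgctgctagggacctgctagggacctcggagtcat
Aox3, chr1:58112886-58113185, plus strand: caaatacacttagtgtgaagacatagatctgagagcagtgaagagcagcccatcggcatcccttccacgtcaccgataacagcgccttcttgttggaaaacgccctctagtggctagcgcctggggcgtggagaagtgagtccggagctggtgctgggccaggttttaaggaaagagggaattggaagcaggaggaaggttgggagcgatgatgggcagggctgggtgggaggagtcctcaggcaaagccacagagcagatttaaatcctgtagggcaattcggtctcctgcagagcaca
The Aox1 window held 2 GC boxes and the Aox3 window none, while 35.7% of 32851 mouse promoter windows of this length held at least 1. The Pkdcc window held 5 GC boxes and the B3gnt3 window 1. The motif of NR5A1, a factor of steroid-making cells (CAAGGNCA), the cyclic AMP response element (TGACGTCA) and the TATA element (TATAAA), read on both strands, were in none of the windows of Aox1, Aox3, Pkdcc, B3gnt3 and Ces1e. They were in 6.71%, 1.79% and 13.6% of all windows, in that order, and none of the motifs overlapped another in these windows.

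In knockout sections, Ces1d, Aox1, Pkdcc, Qpct and B3gnt3 all took a larger share of counts than in wild-type sections, while Aox3 did not differ detectably. The comparison asks how the genes stand in a testis with disrupted spermatogenesis, taken as a whole. Of the 6 genes tested, 5 were called higher and none lower at an edgeR adjusted p under 0.05 over 5182 genes, where 61.6% of all genes tested were called, 22.6% higher and 39.1% lower. The KO sections did not overlap the wild-type sections for the same 5 genes, as was so for 39.6% of all genes tested in this direction and 36% in the other. The wild-type sections are also part of the comparison that chose these 5 genes, where they were the lower side, so they are not independent of the choice. That choice favours higher values in KO sections, and the calls of the 5 genes are given as a description. Aox3 was not chosen by its values. Because the cells of a section are mixed, more cells of a type and more RNA per cell cannot be told apart.

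**Figure D1:**
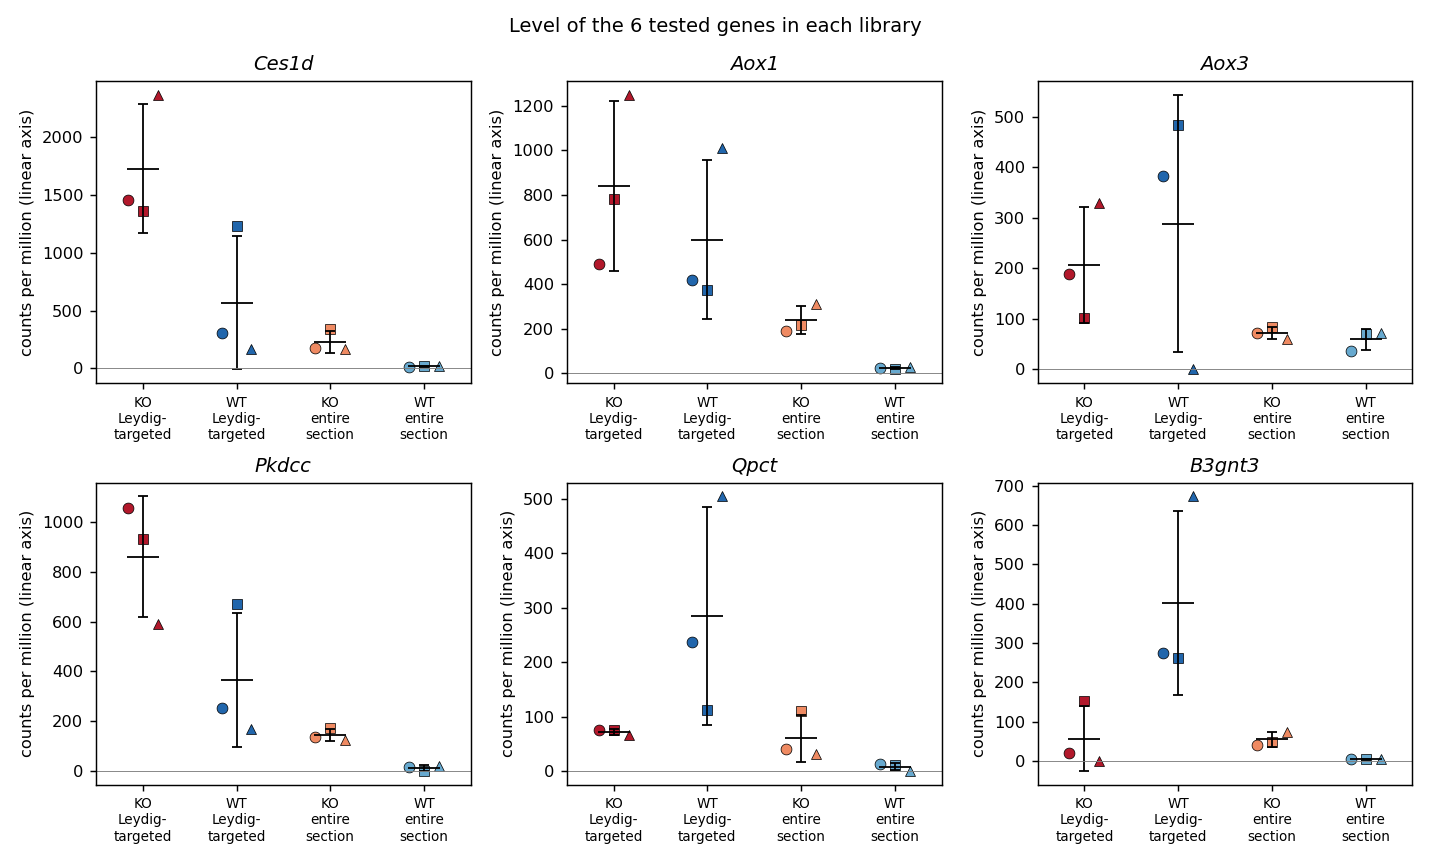
CPM (linear axes, a scale for each gene) of the 6 tested genes in each library; circles, squares and triangles are replicates 1, 2 and 3, and bars are the mean ± SD of 3 libraries. In entire sections all 3 KO libraries lie above all 3 WT libraries for every gene except Aox3, while in Leydig-targeted libraries Qpct and B3gnt3 lie lower in KO than in WT.

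Ces1d had 181, 339 and 168 CPM in KO sections, against 14.1, 21.05 and 20.2 CPM in wild-type sections. All 3 KO sections were far above all 3 wild-type sections. Its log2 fold change was 3.01 ± 0.56 (SE; edgeR adjusted p = 3.04e-07). The summed CPM was 12.8-fold higher in KO, with a counting interval of 8.41 to 20.3 (exact, 95%, counting error only). Ces1f, by contrast, had 1 count in KO section replicate 3 and 0 in the other 11 libraries, so Ces1d held 273 of the 274 counts of the pair in KO sections and all 24 in wild-type sections. The 0 counts in wild-type sections allow up to 2.76 CPM of Ces1f (upper end of the exact 95% interval, counting error only).

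Aox1 had 191, 219 and 311 CPM in KO sections, against 26.5, 19.1 and 28.3 CPM in wild-type sections. The groups did not overlap, and the log2 fold change was 2.71 ± 0.52 (SE; edgeR adjusted p = 8.28e-07). Aox3, its neighbour on the chromosome, had 71.5, 84.1 and 59.0 CPM in KO sections, against 35.3, 70.8 and 72.7 CPM in wild-type sections, and these values overlapped. The log2 fold change of Aox3 was -0.33 ± 0.46 (SE; edgeR adjusted p = 0.546), with a 95% interval of -1.23 to 0.57. The sign of this value depends on the scaling: with library size alone it was 0.30. The balance of the 2 oxidases can be read within a library, without any scaling. Aox1, unlike Aox3, was chosen on values of the wild-type libraries, which favours a low Aox1 share in wild-type sections. The shares and their tests are therefore given as a description. Aox1 took 72.8, 72.3 and 84.0% of the Aox1 and Aox3 counts of the KO sections, against 42.9, 21.3 and 28.0% in the wild-type sections. The means were 76.4% ± 6.64 in KO and 30.7% ± 11.04 in wild type (SD, n = 3 each), and no library of one group reached the range of the other. An exact permutation test of the difference gave p = 0.1 (two-sided), the smallest that 3 against 3 libraries can give. With same-numbered sections kept as pairs, the exact permutation p was 0.25 (two-sided), the smallest that 3 pairs can give, and the share was higher in KO in 3 of 3 pairs. The share compares reads of 2 genes with coding sequences of 3999 bases for Aox1 and 4005 for Aox3. How well each is captured was not tested, so the share does not say which is expressed more.

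**Figure D2:**
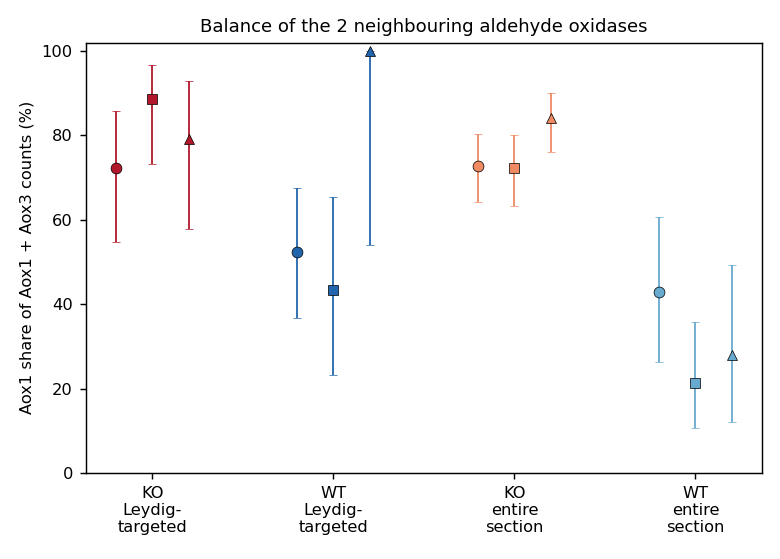
Share of the counts of Aox1 and Aox3 together that belonged to Aox1, in percent, for each library, with exact binomial 95% intervals (counting error only). KO sections lie at 72.3 to 84.0% and WT sections at 21.3 to 42.9%; the WT Leydig-targeted library at 100% rests on 6 counts.

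In Leydig-targeted libraries the Aox1 share was 72.2, 88.6 and 79.2% in KO, against 52.3, 43.5 and 100% in wild type. The last value, from replicate 3, rests on 6 counts and has a binomial interval of 54.1 to 100%. The KO mean was 80.0% ± 8.21 and the wild-type mean 65.3% ± 30.4 (SD, n = 3 each; exact permutation p = 0.5, two-sided). Without that library the wild-type values lay below all 3 KO values. In KO testes the mean share was 80.0% in Leydig-targeted libraries and 76.4% in entire sections, a difference of 3.62 percentage points, less than the spread between libraries of either group.

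Among the secretory enzymes, Pkdcc had 139, 173 and 124 CPM in KO sections, against 19.4, 1.91 and 20.2 CPM in wild-type sections. Its log2 fold change of 2.90 ± 0.57 (SE; edgeR adjusted p = 1.49e-06) was close in size to that of Ces1d. Qpct had 39.9, 110 and 31.1 CPM in KO sections, against 12.4, 11.5 and 0 CPM in wild-type sections. KO section replicate 2 was the high one, and the other KO libraries also lay above all wild-type sections. The log2 fold change was 2.04 ± 0.58 (SE; edgeR adjusted p = 0.00115). B3gnt3 had 39.9, 48.4 and 74.6 CPM in KO sections, against 3.53, 5.74 and 4.04 CPM in wild-type sections, with 6 counts in all in the wild-type sections. The groups lay far apart, with a log2 fold change of 2.87 ± 0.67 (SE; edgeR adjusted p = 6.00e-05).

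Markers of Leydig cells rose in the same sections, and all 10 of 10 tested were called higher, with a median log2 fold change of 2.74 beside -0.35 over all 5182 genes. Set against these markers, the 5 genes were no longer called, though their values stayed above 0. On that scale 25 of all 5182 genes were called higher and 3782 lower, so a lost call says little about these genes. When libraries were scaled to the summed Leydig marker counts, the log2 fold change was 1.04 ± 0.64 for Ces1d (edgeR adjusted p = 0.138) and 1.05 ± 0.65 for Pkdcc (edgeR adjusted p = 0.137). It was 0.72 ± 0.61 for Aox1, 0.95 ± 0.78 for B3gnt3 and 0.17 ± 0.68 for Qpct, with edgeR adjusted p of 0.282, 0.268 and 0.831, in that order. Aox3 was called lower on that scale, by -2.41 ± 0.60 (edgeR adjusted p = 1.73e-04). This scaling moves the median of all genes to -2.37, so a value of 0 there means a change in step with the Leydig markers and not with the library. Other cell types moved too: macrophage markers took 0.128 to 0.217% of KO and 0.0174 to 0.0434% of wild-type sections, and Sertoli markers 1.39 to 1.46% of KO and 0.268 to 0.535% of wild-type sections. Their part in the result was not tested.

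**Figure D3:**
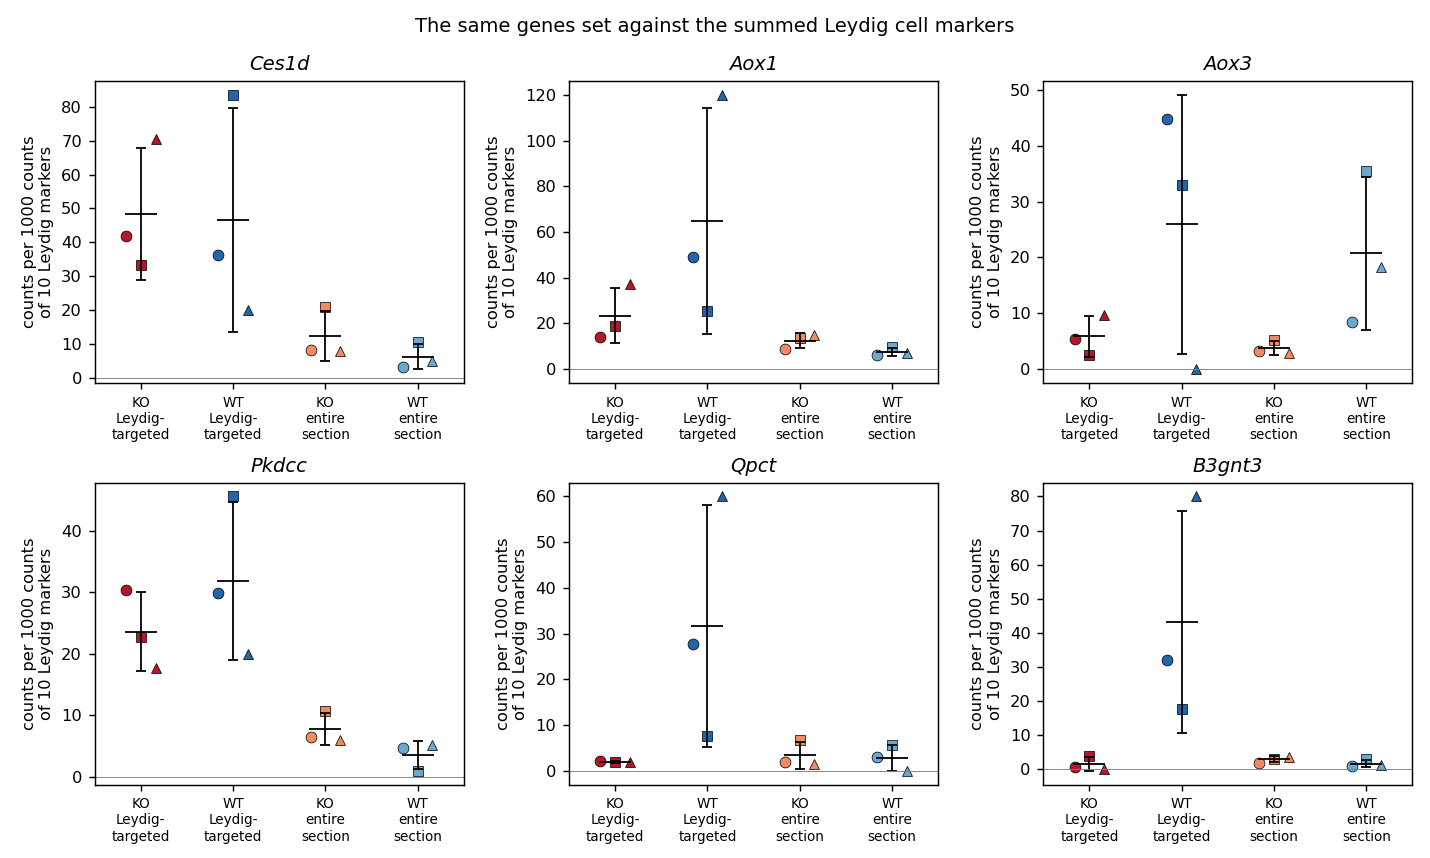
Counts of each gene per 1000 counts of the 10 Leydig markers in the same library (linear axes); symbols and bars are as in the plot of CPM. Between KO and WT sections the ranges of Ces1d, Aox1, Qpct and B3gnt3 overlap, Pkdcc is higher and Aox3 lower in every KO section, and Qpct and B3gnt3 are lower in every KO than in every WT Leydig-targeted library.

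Per 1000 Leydig marker counts, summed over 3 libraries, Ces1d had 11.7 counts in KO sections and 5.44 in wild-type sections, and Aox1 had 11.9 in KO sections and 7.26 in wild-type sections. Aox3 had 3.69 in KO sections and 17.0 in wild-type sections, and in each KO section it lay below every wild-type section. Markers of fat and liver, tissues known for Ces1d and Aox3, had few counts, and the part of such cells in the values was not tested. The 8 adipocyte markers held 46 counts over the 3 KO sections and 46 over the 3 wild-type sections, at most 0.0046% of a library. In Leydig-targeted libraries they held 4 counts in KO and 5 in wild type, at most 0.0066% of a KO and 0.0168% of a wild-type library. Adipoq, Retn and Cidec were at 0 in KO sections, where the other 5 had a count, and all 8 had a count in wild-type sections. The 6 hepatocyte markers held 9 counts in KO sections and 7 in wild-type sections, and 0 in all 6 Leydig-targeted libraries.

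Between Leydig-targeted libraries, fitted values were above 0 for Ces1d, Pkdcc and Aox1 and below 0 for Qpct, B3gnt3 and Aox3, and only B3gnt3 was past the threshold. Of 6 genes tested, 1 was called lower and none higher, where 28.5% of all genes tested were called, 20.9% lower and 7.55% higher, so the count of calls is near the background. The comparison asks how Leydig cell areas themselves differ between the genotypes. Its wild-type libraries are those in which the genes were chosen for being high. B3gnt3 reached the 66.1 CPM of the filter in all 3 of them and in only 2 of the other 9 libraries, so it entered the test through the group where it was high, which favours a lower value in KO. Its call is therefore given as a description.

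B3gnt3 had 18.9, 151 and 0 CPM in KO Leydig-targeted libraries, from 7 counts, against 273, 261 and 673 CPM in wild type, from 26 counts. All KO libraries lay below all wild-type libraries, as was so for 11.2% of genes tested. The log2 fold change was -2.38 ± 0.75 (SE; edgeR adjusted p = 0.00898), and the ratio of summed CPM 0.219 (counting interval 0.080 to 0.518). With no filter on low counts the value was -1.77 (edgeR adjusted p = 0.220). The call was lost without KO replicate 1 (-1.39, edgeR adjusted p = 0.237), without wild-type replicate 1 (-1.80, edgeR adjusted p = 0.172) and without wild-type replicate 2 (-2.08, edgeR adjusted p = 0.0544), and the value was -4.72 without KO replicate 2.

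Qpct had 75.5, 75.6 and 65.8 CPM in KO Leydig-targeted libraries, from 8 counts, against 237, 112 and 504 CPM in wild type, from 19 counts. Here too the groups did not overlap, but the log2 fold change of -1.73 ± 0.77 (SE) missed the threshold (edgeR adjusted p = 0.0771). Without wild-type replicate 3 it was -2.18 and passed it (edgeR adjusted p = 0.0297). It also passed when KO section replicate 1 or 2, or any of the 3 wild-type sections, was left out of the fit, with values from -2.31 to -2.05 (edgeR adjusted p from 0.0217 to 0.0472). Ces1d had 1453, 1361 and 2367 CPM in KO, against 310, 1229 and 168 CPM in wild type, with no overlap, as was so for 13.5% of genes tested in that direction. Its log2 fold change of 1.24 ± 0.52 (SE) narrowly missed the threshold (edgeR adjusted p = 0.0573). The value rests on single wild-type libraries: it was 2.69 without replicate 2 (edgeR adjusted p = 0.00275) and 0.34 without replicate 3 (edgeR adjusted p = 0.677).

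Pkdcc had 1057, 932 and 592 CPM in KO Leydig-targeted libraries, against 255, 670 and 168 CPM in wild type. The highest wild-type library exceeded the lowest KO library, and the log2 fold change was 1.03 ± 0.54 (SE; edgeR adjusted p = 0.143). It was 2.10 without wild-type replicate 2, which passes the threshold (edgeR adjusted p = 0.0191), and 0.26 without replicate 3. Aox1 had 491, 781 and 1249 CPM in KO, against 419, 372 and 1009 CPM in wild type, and the groups overlapped. Its log2 fold change was 0.57 ± 0.55 (SE; edgeR adjusted p = 0.464), with a 95% interval of -0.50 to 1.64. Aox3 had 189, 101 and 329 CPM in KO, against 383, 484 and 0 CPM in wild type. With the empty replicate 3 its log2 fold change was -1.24 ± 0.61 (SE; edgeR adjusted p = 0.119), and without that library it was -2.07 and was called lower (edgeR adjusted p = 0.00533). It was also called when KO section replicate 2, or any of the 3 wild-type sections, was left out, with values from -1.80 to -1.55 (edgeR adjusted p from 0.0253 to 0.0427).

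**Figure D4:**
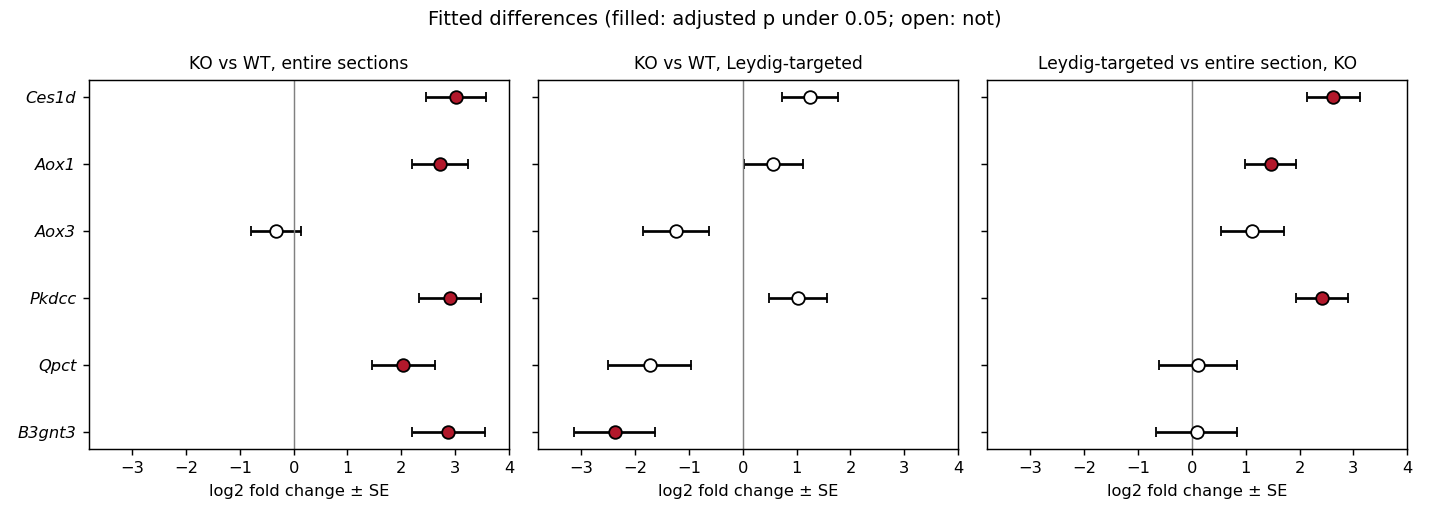
Fitted log2 fold change ± SE of the 6 tested genes in 3 comparisons; filled points have an edgeR adjusted p under 0.05. In KO against WT sections 5 genes, chosen on values that include these WT sections, are filled to the right of 0. Between Leydig-targeted libraries only B3gnt3 is filled, to the left, and it entered the test through its wild-type Leydig-targeted libraries. Between Leydig-targeted and entire-section libraries of KO testis, Ces1d, Aox1 and Pkdcc are filled.

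Of the 10 Leydig markers, 6 were called higher in KO Leydig-targeted libraries. Scaled to their summed counts, Ces1d, Aox1 and Pkdcc turned to -0.15, -1.19 and -0.54, with edgeR adjusted p of 0.869, 0.134 and 0.512, in that order. On that scale Qpct was called lower by -3.45 ± 0.83 (edgeR adjusted p = 3.22e-04), B3gnt3 by -4.15 ± 0.79 (edgeR adjusted p = 7.08e-06) and Aox3 by -2.70 ± 0.72 (edgeR adjusted p = 0.00119). Of all 5182 genes, 2237 were called lower and 36 higher on that scale, with a median of -1.88. Wild-type replicate 3 was scaled on 50 marker counts. Qpct and B3gnt3 were chosen for high values in these wild-type libraries, so their calls are a description. Wild-type Leydig-targeted libraries also held spermatid transcripts that KO libraries nearly lacked, with 7 marker counts in KO against 2060 in wild type. The part of those cells in the values of Qpct, B3gnt3 and Aox3 was not tested.

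Within KO testis, Leydig-targeted libraries were higher than entire sections for Ces1d, Pkdcc and Aox1, which shows the regional difference in libraries that were not used to choose the genes. Of 6 genes tested 3 were called higher and none lower, where 5.44% of all genes tested were called, 1.91% higher and 3.53% lower. Ces1d had 1453, 1361 and 2367 CPM in Leydig-targeted libraries, against 181, 339 and 168 CPM in sections, a log2 fold change of 2.63 ± 0.49 (SE; edgeR adjusted p = 3.23e-05). Pkdcc had 1057, 932 and 592 CPM in Leydig-targeted libraries, against 139, 173 and 124 CPM in sections, a log2 fold change of 2.41 ± 0.48 (SE; edgeR adjusted p = 1.97e-04). For both genes the lowest Leydig-targeted library lay far above the highest section. Aox1 had 491, 781 and 1249 CPM in Leydig-targeted libraries, against 191, 219 and 311 CPM in sections. Its log2 fold change of 1.46 ± 0.48 (SE) passed the threshold narrowly (edgeR adjusted p = 0.0462), and the call was lost in 10 of the 12 fits that left out a library, with values from 0.76 to 1.79 and edgeR adjusted p from 0.0427 to 0.377.

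Aox3 had 189, 101 and 329 CPM in KO Leydig-targeted libraries, against 71.5, 84.1 and 59.0 CPM in KO sections. The libraries did not overlap, as for 8.34% of genes tested in this direction and 21.8% in the other, and the log2 fold change of 1.12 ± 0.58 (SE) was not called (edgeR adjusted p = 0.260). Qpct and B3gnt3 showed no detectable regional difference in KO testis. The log2 fold change was 0.11 ± 0.72 for Qpct (SE; edgeR adjusted p = 0.964; 95% interval -1.30 to 1.53) and 0.09 ± 0.75 for B3gnt3 (SE; edgeR adjusted p = 0.979; 95% interval -1.38 to 1.57). Their values rest on 8 and 7 counts in the KO Leydig-targeted libraries, so differences within these intervals could not be seen at this depth. Among the Leydig markers only Fdx1 and Fdxr, which pass electrons to the steroid-making cytochromes, were called higher in this comparison. The median of the 10 markers was 0.73, below the values of Ces1d, Pkdcc, Aox1 and Aox3. Single markers reached higher: Fdxr at 1.78 and Fdx1 at 1.73 lay above Aox1, and Hsd17b3 at 1.39 and Lhcgr at 1.27 above Aox3. Scaled to the Leydig markers, Ces1d at 1.93 ± 0.59 (edgeR adjusted p = 0.0183) and Pkdcc at 1.64 ± 0.57 (edgeR adjusted p = 0.0360) were still called, and Aox1 at 0.84 ± 0.58 was not (edgeR adjusted p = 0.320).

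In wild-type testis the same regional comparison chose the genes, so its values are a description. The log2 fold changes, with no test, were 5.34 for B3gnt3, 4.40 for Ces1d, 4.29 for Pkdcc, 3.88 for Qpct, 3.61 for Aox1 and 2.03 for Aox3, and 15.6% of all genes tested were called there, 3.22% higher and 12.4% lower. Without overlap were 7.78% of genes tested in the higher direction and 21.4% in the lower. By summed CPM, Qpct in Leydig-targeted libraries stood 1.23-fold above the section in KO and 22.3-fold in wild type, and B3gnt3 1.25-fold in KO and 66.1-fold in wild type. Across the 4 groups, mean CPM of Ces1d was 1727 ± 556 in KO Leydig-targeted, 569 ± 576 in wild-type Leydig-targeted, 229 ± 95.4 in KO section and 18.5 ± 3.78 in wild-type section libraries (SD, n = 3 each). Pkdcc followed the same order, with 860 ± 241, 365 ± 268, 145 ± 25.2 and 13.8 ± 10.3 CPM (SD, n = 3 each). B3gnt3 averaged 56.7 ± 82.4 CPM in KO Leydig-targeted and 402 ± 234 in wild-type Leydig-targeted libraries, and 54.3 ± 18.1 in KO and 4.44 ± 1.16 in wild-type sections (SD, n = 3 each), so wild-type Leydig-targeted libraries led that order. The middle neighbours, KO Leydig-targeted and KO section libraries, did not differ beyond their spread. Qpct had the order of B3gnt3, with 72.3 ± 5.64 CPM in KO and 284 ± 201 in wild-type Leydig-targeted libraries, and 60.2 ± 43.0 in KO and 7.95 ± 6.90 in wild-type sections (SD, n = 3 each). Aox1 had the order of Ces1d, with 840 ± 383 CPM in KO and 600 ± 355 in wild-type Leydig-targeted libraries, and 240.4 ± 62.5 in KO and 24.6 ± 4.84 in wild-type sections (SD, n = 3 each). Aox3 averaged 206 ± 115 CPM in KO and 289 ± 255 in wild-type Leydig-targeted libraries, and 71.6 ± 12.6 in KO and 59.6 ± 21.1 in wild-type sections (SD, n = 3 each), and neither pair differed beyond its spread.

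Over the 12 libraries, Ces1d and Pkdcc were each other's nearest gene among 4811 named genes tested, at a root-mean-square distance of 0.66 between their centred log2 CPM profiles. The noncoding RNA Meg3 was second for both, at 0.89 from Ces1d and 0.71 from Pkdcc. Nearest to Aox1 were the complement gene C2 at 0.39, the noncoding RNA Neat1 at 0.46 and the transcription factor Klf15 at 0.48. Aox3 stood 1.86 from Aox1 and was nearest to Ccar1 at 0.50. Qpct and B3gnt3 were nearest to other genes, Plscr2 at 0.63 and Rad1 at 0.85, and 1.08 from each other. Next after these came Slc45a3 for Ces1d at 0.89 and Akr1cl for Pkdcc at 0.75. These distances include the 4-group differences that chose the genes and are a description.

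The wider esterase family gave few counts. Of the other 16 carboxylesterase genes listed, 11 were in the table, 10 had a count, 2 had 10 or more counts and none passed the filter. Ces5a, an esterase known from the epididymis, had 0 counts in KO sections, against 12, 10 and 4 counts in wild-type sections, and was at least 7.71-fold lower in KO (floor of 3 counts over the group). Ces2g had 5, 5 and 2 counts in KO sections, against 1, 1 and 1 in wild-type sections, a ratio of 4.49 in CPM with a counting interval of 1.21 to 24.8.

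Enzymes that handle lipid esters were split between the genotypes. Of 11 tested in entire sections, 4 were called higher and 5 lower in KO, where 22.6% of all genes tested were called higher and 39.1% lower, with a median log2 fold change of 0.66 beside -0.35 for all genes. Abhd5, the coactivator of the triglyceride lipase, fell by 3.46 ± 0.49 (SE; edgeR adjusted p = 1.30e-11), Dgat2, which makes triglyceride, fell by 3.06 ± 0.48 (SE; edgeR adjusted p = 6.65e-10) and Lipe, the hormone-sensitive lipase, fell by 2.73 ± 0.60 (SE; edgeR adjusted p = 1.61e-05). Under each of 4 scalings tried (TMM, relative log expression, library size alone and Leydig markers) Abhd5, Dgat2 and Lipe were lower and called. Against the Leydig markers none of the 11 was called higher and 7 were called lower. On that scale 25 of all 5182 genes were called higher and 3782 lower, so these counts are near the background. Between Leydig-targeted libraries 2 of the 11, Abhd5 (-3.07 ± 0.95) and Lipe, were called lower in KO and 1 was called higher. Of all genes tested, 20.9% were called lower there and 7.55% higher, so the count of lower calls is near the background.

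Of 6 tested genes of other oxidation steps, 5 were called higher in KO sections and none lower, with a median log2 fold change of 2.47, where 22.6% of all genes tested were called higher and 61.6% in either direction. Scaled to the Leydig markers, none was called higher and 1, Cbr1, was called lower, with a median of 0.51. Of all 5182 genes, 25 were called higher and 3782 lower on that scale, with a median of -2.37. With relative log expression the same 5 were called higher, and Cbr1 was called lower at -0.98 ± 0.41 (edgeR adjusted p = 0.0259), beside -0.93 ± 0.43 with TMM (edgeR adjusted p = 0.0502). Adh1, an alcohol dehydrogenase, rose by 2.64 ± 0.48 (SE; edgeR adjusted p = 1.87e-07), and Adh5, which also handles formaldehyde, by 2.59 ± 0.48 (SE; edgeR adjusted p = 2.72e-07). Aldh2, the mitochondrial aldehyde dehydrogenase, rose by 2.52 ± 0.48 (SE; edgeR adjusted p = 7.81e-07) and Ephx1, the microsomal epoxide hydrolase, by 2.42 ± 0.48 (SE; edgeR adjusted p = 1.83e-06). Between Leydig-targeted libraries 3 of the 6 were called higher in KO (Aldh2, Adh5 and Ephx1) and none lower, where 7.55% of all genes tested were called higher and 20.9% lower. Scaled to the Leydig markers, none of the 6 was called there, with a median of 0.085, where the median of all genes was -1.88. Within KO testis none of the 6 was called between regions by edgeR at an adjusted p under 0.05, where 5.44% of all genes tested were called. None of the 6 had an unadjusted edgeR p under 0.05 there (values from -0.72 to 0.36).

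Aldehyde oxidase needs a sulfurated molybdenum cofactor. Of the 11 genes of molybdenum enzymes and cofactor synthesis listed, 9 were in the table and 2 passed the filter. Mocs2, a subunit of molybdopterin synthase, rose in KO sections by 1.91 ± 0.58 (SE; edgeR adjusted p = 0.00217), and Gphn, which inserts the metal, had a log2 fold change of -0.46 ± 0.62 (SE; edgeR adjusted p = 0.529). Scaled to the Leydig markers, Mocs2 turned to -0.11 ± 0.66 and Gphn was called lower at -2.44 ± 0.67 (edgeR adjusted p = 6.56e-04). Of all 5182 genes, 3782 were called lower on that scale. Neither was called between Leydig-targeted libraries or between regions of KO testis. Mocos, which adds the sulfur to the cofactor of aldehyde oxidase, was under the filter and was picked out after its values were seen. It had 27.3, 28.0 and 31.1 CPM in KO sections, against 3.53, 7.65 and 0 CPM in wild-type sections, a ratio of 6.37 in summed CPM (counting interval 2.64 to 18.6). Other genes of this list under the filter went both ways. Mocs1 was also higher in KO sections, with a ratio of 4.815 (counting interval 2.07 to 13.0). Mocs3 was lower, at 0.383 (0.198 to 0.702), as was Suox, at 0.478 (0.254 to 0.862). Xdh had 2 counts in KO and 1 in wild-type sections. The remaining oxidases of the gene cluster, Aox2 and Aox4, had 1 and 2 counts in KO sections, against 1 and 0 in wild-type sections.

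Around the secretory enzymes, peptide-processing genes gave 3 called higher and none lower of 5 tested in KO sections, a count of calls near the 61.6% of all genes called in either direction (22.6% higher). Cpe, a carboxypeptidase of peptide hormones, rose by 2.16 ± 0.47 (SE; edgeR adjusted p = 1.73e-05), Furin, a proprotein convertase, by 1.57 ± 0.45 (SE; edgeR adjusted p = 0.00126) and Pam, which amidates peptides, by 1.40 ± 0.43 (SE; edgeR adjusted p = 0.00292), while Pcsk6 had a value of -0.75 ± 0.44. Against the Leydig markers none was called higher and 2 were called lower, where 25 of all 5182 genes were called higher and 3782 lower. Furin and Pam turned to -0.39 ± 0.56 and -0.57 ± 0.55 on that scale. Cpe was also higher between Leydig-targeted libraries (1.76 ± 0.60; edgeR adjusted p = 0.0179), the only one of the 5 called there. Of all genes tested, 7.55% were called higher and 20.9% lower in that comparison. Between regions of KO testis none was called higher and 2, Pcsk6 and Furin, were called lower in Leydig-targeted libraries. Among all genes tested, 1.91% were called higher and 3.53% lower between these regions. Of 19 genes of lactosamine and O-glycan synthesis listed, 15 were in the table and 1 was tested, B4galt1, which adds galactose to the sugar that B3gnt3 transfers. It rose in KO sections by 1.14 ± 0.47 (SE; edgeR adjusted p = 0.0272), turned to -0.85 ± 0.55 against the Leydig markers, and was not called in the other comparisons of KO libraries. Of the 11 secretory kinases listed beside Pkdcc, 6 were in the table and none passed the filter.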

How the data were processed

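Testis sections were profiled by photo-isolation chemistry in 4 groups of 3 libraries, grouped by the samples' titles. The authors deposited whole-number counts per gene, with no normalization. The tools named, per the submitters' processing notes, are featureCounts, HISAT2, Trim Galore and UMI-tools, on GRCm38, without version, order or strand setting. Library totals ran from 5947 to 566527 counts, and exact 95% intervals and floors of 3 counts cover counting error only. CPM are counts divided by library totals.

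Counts were tested with edgeR 4.0.16 in R 4.3.3 (robust quasi-likelihood test, TMM scaling, expression filter with minimum count 10, about 66.1 CPM in 3 libraries) in 1 fit of 12 libraries and 5182 genes, adjusted by Benjamini-Hochberg over all genes. The fit was also run on simulated counts, with an outcome that is not given here. Most genes were unchanged in them, so shifts as wide as those between these sections were not covered. A 95% interval of a log2 fold change is from its SE. Same-numbered KO and wild-type section libraries deviated together (correlations across genes 0.243, 0.132 and 0.194). Libraries of different number were not compared and no label states a pairing, so whether the numbers pair these libraries is not known.

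The genes and all 22 lists (229 entries, 202 in the table) were chosen with earlier results of these data known. Named from each list are up to 4 tested genes with the smallest p in KO against wild-type sections, the other Ces or Aox genes with 10 or more counts, and the 3 nearest profiles of each gene, of which some are given. The result of 1 gene of the lipid ester list is not reported here. From the marker lists, sums and markers at 0 are given, and the Leydig marker Insl3 is not analysed here. Alternatives were other scalings, filters, tests and fits, a replicate block and leaving out each library, with DESeq2 1.42.0 among them. Positions are from GENCODE M21, and promoters from RefSeq.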

Additional observations from a re-analysis of the deposited data

Results flagged for a closer look

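Qpct and B3gnt3 were higher in every KO than in every wild-type section and lower in every KO than in every wild-type Leydig-targeted library, as was so, taken singly, for 39.6% and 11.2% of all genes tested. The ratio of summed CPM, KO over wild type, for Qpct was 6.223 in sections and 0.342 after Leydig targeting. For B3gnt3 it was 11.61 in sections and 0.219 after Leydig targeting. The difference between the 2 ratios was not tested, because such a test contains the wild-type regional comparison on which both genes were chosen. Between Leydig-targeted libraries Qpct was not called (-1.73; edgeR adjusted p = 0.0771), and B3gnt3, which passed the filter through its wild-type Leydig-targeted libraries, lost its call in 3 of the 12 fits that left out a library. The Leydig-targeted values rest on 8 counts in KO and 19 in wild type for Qpct, and on 7 in KO and 26 in wild type for B3gnt3.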

How the results depend on the processing

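Of the 9 alternatives other than leaving out a library, relative log expression size factors and DESeq2 changed no call of the 6 genes in the 3 comparisons tested. Scaling to the Leydig markers ended all 5 calls in sections and called 1 gene there, Aox3, lower, made 3 called between Leydig-targeted libraries, and turned Ces1d (-0.15), Aox1 (-1.19) and Pkdcc (-0.54) there and Qpct (-0.71) and B3gnt3 (-0.67) between KO regions; all genes called became 2273 between Leydig-targeted libraries, 739 between KO regions and 2648 between wild-type regions. Higher calls made up 36.6% of all calls between sections, 52.2% with library size alone and 0.657% with Leydig markers. Between Leydig-targeted libraries that share was 26.5%, 35.1% with library size alone and 1.58% with Leydig markers, between KO regions 35.1%, 52.6% and 3.79%, and between wild-type regions 20.6%, 57% and 2.57%. The median log2 fold change of all genes between sections was -0.35, 0.23 with library size alone and -2.37 with Leydig markers.

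With library size alone 2 genes were called between Leydig-targeted libraries, with a minimum count of 5 also 2, and with library sizes recomputed after the filter, an alternative chosen after seeing the data, 3. With no expression filter, 7055 genes were called between sections, 825 between Leydig-targeted libraries and 1602 between wild-type regions, and 0 of the 7 genes in the table remained under the filter, against 1. With a minimum count of 5, 1341 were called between wild-type regions. With recomputed library sizes 550 were called between KO regions and 509 between wild-type regions. With only the 2 groups compared, 5238 were called between sections, 468 between KO regions, 346 between wild-type regions and 173 between Leydig-targeted libraries, where 418 genes and 4 of the 6 were tested and 0 of them called. Aox3 between sections was 0.30 with library size alone, 0.0103 with no filter and 0.0295 with only the 2 groups. Between KO regions Qpct was -0.32 and B3gnt3 -0.35 with no filter, B3gnt3 -0.0046 with a minimum count of 5, and Qpct -0.20 and B3gnt3 -0.26 with recomputed library sizes. B3gnt3 lost its call between Leydig-targeted libraries with no filter (-1.77, edgeR adjusted p = 0.220). Where a filter or the libraries in the fit changed, other genes were tested; the cause of the other changes was not tested.

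The fit with the replicate number as a block called 2 genes between Leydig-targeted libraries, with Ces1d at 1.48 (edgeR adjusted p = 0.0448), and put Aox1 between KO regions at 1.49 (edgeR adjusted p = 0.0797); it changed no other call of the 6 genes. For the Aox1 share in sections the paired permutation, chosen after seeing the data, is given with that result. Same-numbered libraries had correlations from -0.0063 to 0.056 between Leydig-targeted libraries and between KO regions. Between wild-type regions they were from -0.107 to 0.0493.

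Leaving out each library in turn gave 1384 to 5180 genes called between sections, with 5 of 6 genes each time, 588 to 1949 between Leydig-targeted libraries with 0 to 3 of 6, 85 to 949 between KO regions with 2 to 3 of 6, and 267 to 1419 between wild-type regions. The number of genes tested moved with the library left out, from 2261 to 8306. Values that changed sign were Aox3 between sections (-0.36 to 0.32), Aox1 between Leydig-targeted libraries (-0.0722 to 1.16), and between KO regions Qpct (-0.37 to 0.53) and B3gnt3 (-2.46 to 0.57). Depth limits the Leydig-targeted libraries most, where 3 counts are 54.7 to 504 CPM, so genes at under about that level could not be followed library by library.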
